A study of Rattus norvegicus with 24 samples.

Results

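RNA sequencing compared primary cardiac fibroblasts of 20-month-old rats with those of 3-4-week-old rats, both kept in normal glucose. The comparison rests on 6 of the 24 libraries of the series, 3 at 20 months and 3 at 3-4 weeks, chosen by their age and glucose labels alone. All of these cells were grown in DMEM with fetal bovine serum, seeded into six-well plates and held for 24 hours in DMEM with 5.5 mM glucose before total RNA was taken. The remaining 18 libraries cover the same 2 ages in high glucose (33 mM) and the ages 10-13 weeks and 0-3 days at both glucose levels, with 3 libraries in each of the 8 groups. The labels give no strain, sex, number of animals or passage, so an age difference cannot be told apart from a difference in these. Nothing in them says that libraries of a group came from separate animals or cultures. The p-values therefore measure only the spread between libraries within the groups, estimated over all 24 libraries of the series.

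Cardiac fibroblasts make and turn over the collagen-rich matrix that holds heart muscle together. After injury or under load they divide and can become myofibroblasts, which carry smooth muscle actin, pull on the matrix and lay down more of it. In culture, fibroblasts that stop dividing for good are called senescent. Such cells are known for high levels of the cell cycle inhibitors p16 and p21, low lamin B1, large lysosomes and altered secretion.

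The libraries held 21137687 to 24654286 counts at 20 months and 18889708 to 20043181 at 3-4 weeks. Of the 6 libraries, number 1 at 3-4 weeks stood apart from the other 2 of its age. The first principal component of the 6 libraries (63.6% of the variance) separated the ages. On the second (13.8%) this library was at -40.77, against 22.16 and 9.46 for the other 3-4 weeks libraries and -11.15 to 14.54 at 20 months. It also had the highest sum of macrophage markers and the lowest level of cell division genes of its age. The lists and main genes that touch these are given with and without it. Mitochondrially encoded genes took 4.37% to 4.82% of the counts at 20 months and 2.99% to 3.37% at 3-4 weeks. The 6 genes listed for the Y chromosome summed to 172.8 to 186.2 CPM (a count scaled to a common library total) at 20 months and to 150.3 to 171.6 CPM at 3-4 weeks, so every library held RNA of male cells.

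Of 13806 genes tested, 5184 (37.5%) differed at an adjusted p under 0.05 in edgeR's quasi-likelihood test with Benjamini-Hochberg adjustment, which stands behind every adjusted p below unless another tool is named. At 20 months 2470 genes (17.9%) were higher and 2714 (19.7%) lower. More than 2-fold changes made up 594 of the higher and 994 of the lower calls. Scaling by library totals alone put the median log2 change of all genes at -0.089, against -0.005 with TMM scaling, and gave 1846 higher and 3474 lower calls, so that 34.7% of calls were higher, against 47.6%. The 3 libraries of each age did not overlap in 6276 genes (45.5%). With so many genes called, a list of genes is read below against these shares. Levels are CPM on TMM-scaled library sizes, given for libraries 1, 2 and 3 in that order. Log2 changes are 20 months minus 3-4 weeks, with a standard error (SE). Counts of 1 or 2 calls in a list often lost or gained a call when 1 library was left out, and libraries are named below for larger counts.

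Cell division genes showed the most uniform change. All 29 tested genes of mitosis and the kinetochore and all 24 of replication licensing and the fork fell at 20 months, with median log2 changes of -2.41 and -1.60, against a median of -0.005 over all genes tested. All 16 genes of DNA repair by homologous recombination and the Fanconi pathway, which act in S phase, also fell (median -1.86). Without library 2 of 3-4 weeks 10 of these 16 repair genes, 23 of the mitosis genes and 17 of the replication genes passed. Without library 1 of 3-4 weeks all of these genes fell, with medians of -2.84 for mitosis, -1.89 for replication and -2.19 for repair. None rose.

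Mki67, whose protein coats mitotic chromosomes and marks cycling cells (ENSRNOG00000028137, Rnor_6.0 chromosome 1, 207993895 to 208020454), had 14.9, 36.2 and 18.1 CPM at 20 months and 62.3, 304 and 156 CPM at 3-4 weeks. Cdc20, which starts chromosome separation (chromosome 5, 137260728 to 137264931), had 5.61, 10.3 and 7.47 CPM at 20 months and 16.9, 116 and 54.8 CPM at 3-4 weeks. The ages did not overlap in either gene, yet the 3-4 weeks libraries spread widely, with library 1 the lowest and library 2 the highest. The log2 change was -2.92 ± 0.57 (SE, adjusted p = 0.000789) for Mki67 and -3.01 ± 0.60 (adjusted p = 0.000935) for Cdc20. Without library 1 of 3-4 weeks they were -3.32 and -3.45. The spindle checkpoint kinases Bub1 and Ttk fell by 2.37 and 2.71 on the log2 scale, and by 2.75 and 3.13 without that library.

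Mcm2, a subunit of the replication helicase (chromosome 4, 120825699 to 120840111), had 46.9, 61.9 and 64.6 CPM at 20 months and 101, 215 and 145 CPM at 3-4 weeks (log2 change -1.41 ± 0.27, adjusted p = 0.000624). Lig1, the ligase that joins Okazaki fragments (chromosome 1, 75356220 to 75394758), had 4.87, 10.0 and 6.43 CPM at 20 months and 13.5, 41.9 and 23.2 CPM at 3-4 weeks (-1.88 ± 0.39, adjusted p = 0.00114). Another helicase subunit, Mcm6, and the polymerase subunit Pold1 fell by 1.76 and 1.67. Here too library 1 was the lowest of the 3-4 weeks libraries in all 4 genes. Without it Mcm2 was at -1.64, Lig1 at -2.19, Mcm6 at -2.05 and Pold1 at -1.95. Summed over the mitosis list, the libraries had 178.6, 344.9 and 212.5 CPM of plain totals at 20 months and 448.4, 2697 and 1316 CPM at 3-4 weeks.

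The promoters of these genes are shown because the mitosis and replication lists, which both fell, differ in how often they hold certain known sequence elements, though CCAAT is common in both. Genes of the G2 and M phases are known to carry a cell cycle homology region (CHR), often with CCAAT boxes, and genes of S phase sites for E2F factors. Of each list, the called genes with the smallest adjusted p were printed among those holding the elements (CHR and CCAAT for mitosis, E2F for replication). Their matches were thus fixed by this choice. The sequences are RefSeq promoters of build GRCr8, 300 bases each, from 250 before to 50 after the start, written along the gene's strand. They are chr1:199952544-199952843 for Mki67, chr5:137255750-137256049 for Cdc20 and chr4:122918045-122918344 for Mcm2, all on the minus strand, and chr1:83242920-83243219 for Lig1 on the plus strand. Capitals mark the CHR letters TTTGAA or TTCGAA and CCAAT on either strand in Mki67 and Cdc20, and the E2F letters (TTTCCCGC, TTTCGCGC, TTTGCCGC or TTTGGCGC, either strand) in Mcm2 and Lig1. Other letters are not marked, so TTTGAA, which the Mcm2 window holds more than once, is in lower case there. In Mki67 a CHR and a CCAAT match share a base, and in Mcm2 the E2F matches are both strands of an overlapping run.
Mki67: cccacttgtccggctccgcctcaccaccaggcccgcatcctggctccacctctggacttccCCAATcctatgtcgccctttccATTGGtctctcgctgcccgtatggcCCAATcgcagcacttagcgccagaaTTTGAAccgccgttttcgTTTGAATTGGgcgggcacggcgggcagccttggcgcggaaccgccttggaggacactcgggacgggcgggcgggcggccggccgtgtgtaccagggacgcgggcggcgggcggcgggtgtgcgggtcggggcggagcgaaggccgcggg
Cdc20: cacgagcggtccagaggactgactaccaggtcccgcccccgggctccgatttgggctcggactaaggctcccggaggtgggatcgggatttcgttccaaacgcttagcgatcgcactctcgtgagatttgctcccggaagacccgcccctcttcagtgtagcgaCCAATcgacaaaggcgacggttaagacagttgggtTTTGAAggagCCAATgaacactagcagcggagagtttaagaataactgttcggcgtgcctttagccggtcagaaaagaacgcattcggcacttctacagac
Mcm2: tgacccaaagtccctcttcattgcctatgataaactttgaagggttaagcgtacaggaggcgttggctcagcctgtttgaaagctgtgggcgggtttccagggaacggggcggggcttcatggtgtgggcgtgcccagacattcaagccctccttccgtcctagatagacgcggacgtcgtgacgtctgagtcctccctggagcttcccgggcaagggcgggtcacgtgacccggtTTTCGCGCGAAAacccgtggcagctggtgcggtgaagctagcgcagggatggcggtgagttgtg
Lig1: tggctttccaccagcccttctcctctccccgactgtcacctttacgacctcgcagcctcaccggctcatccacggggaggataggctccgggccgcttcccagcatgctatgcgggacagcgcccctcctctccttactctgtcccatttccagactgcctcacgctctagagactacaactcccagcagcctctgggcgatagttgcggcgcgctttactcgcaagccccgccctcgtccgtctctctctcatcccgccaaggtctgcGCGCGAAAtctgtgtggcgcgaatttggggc

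RefSeq promoters were matched for 9633 of the 13806 genes tested. The CHR letters were in 19 of the 25 mitosis promoters matched (76.0%), in 3 of 21 replication promoters (14.3%) and in 13.5% of all promoters. The E2F letters were in 1 of 25 mitosis promoters (4.0%), in 12 of 21 replication promoters (57.1%) and in 3.99% of all. CCAAT was in 17 of 25 (68.0%) and 16 of 21 (76.2%), against 37.3% of all. Such matches describe the letters and show no binding.

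Among nucleotide synthesis genes 9 of 13 fell and 0 rose. Tk1, thymidine kinase of S phase, had 12.1, 21.7 and 15.1 CPM at 20 months and 32.9, 147 and 79.6 CPM at 3-4 weeks (log2 change -2.41, and -2.8 without library 1 of 3-4 weeks). The purine enzymes Paics and Impdh2 and the pyrimidine enzyme Cad fell by 0.54, 0.58 and 0.63. Paics overlaps Ppat on the other strand, and no source used here states strand-aware counting, so its reads cannot be told apart from those of Ppat. Of 18 cyclin, kinase and E2F genes of G1, 8 fell and 1 rose. The cell cycle transcription factors Mybl2 and Foxm1 fell by 2.71 and 2.23 (3.11 and 2.62 without that library), Myc by 1.03 and the phosphatase Cdc25a by 0.69.

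Inhibitors of cyclin-dependent kinases went both ways, with 3 of 7 higher and 2 lower. Cdkn2a, the locus of p16 (chromosome 5, 107823330 to 107841175), had 30.6, 18.8 and 30.3 CPM at 20 months and 9.07, 7.28 and 8.37 CPM at 3-4 weeks. Every 20 months library was above every 3-4 weeks library, and the log2 change was 1.69 ± 0.20 (adjusted p = 5.68e-06). Counts are for the gene as a whole, so the share of p16 among its transcripts cannot be told. Cdkn2b, which encodes p15, had 146, 98.9 and 189 CPM at 20 months and 32.9, 17.1 and 61.4 CPM at 3-4 weeks (1.96 ± 0.49, adjusted p = 0.0045). Cdkn1a, which encodes p21 (chromosome 20, 6351458 to 6358864), had 192, 204 and 224 CPM at 20 months and 119, 57.7 and 62.0 CPM at 3-4 weeks (1.38 ± 0.33, adjusted p = 0.00312). Library 1 of 3-4 weeks, the lowest in cell division genes, was the highest of its age in Cdkn1a. Without it the change of Cdkn1a was 1.79. Cdkn3, a phosphatase known to peak in mitosis, fell by 2.01.

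Of 18 targets of p53, 7 rose and 2 fell, and the 7 became 3 without library 2 or without library 3 of 3-4 weeks. Mdm2, which destroys p53, had 120.0, 111 and 109.9 CPM at 20 months and 73.2, 43.9 and 51.9 CPM at 3-4 weeks (log2 change 1.01 ± 0.19, adjusted p = 0.000505). The cyclin Ccng1 had 465, 449.8 and 436 CPM at 20 months and 359, 183 and 207 CPM at 3-4 weeks, and Gadd45a 74.8, 106 and 80.7 against 66.8, 42.1 and 41.4. In each of these library 1 was again the 3-4 weeks library nearest to 20 months, and without it Mdm2 was at 1.25 and Ccng1 at 1.21. Of 14 chromatin and lamina genes tied to senescence, 7 fell and 0 rose. Lmnb1, lamin B1, had 7.58, 15.1 and 9.72 CPM at 20 months and 17.7, 90.8 and 43.1 CPM at 3-4 weeks (-2.22 ± 0.53, adjusted p = 0.003, and -2.63 without library 1 of 3-4 weeks). The DNA methyltransferase Dnmt1, its partner Uhrf1 and the histone methyltransferase Suv39h2 fell by 1.56, 2.13 and 2.18. These genes are also known to follow the cell cycle.

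**Figure D1:**
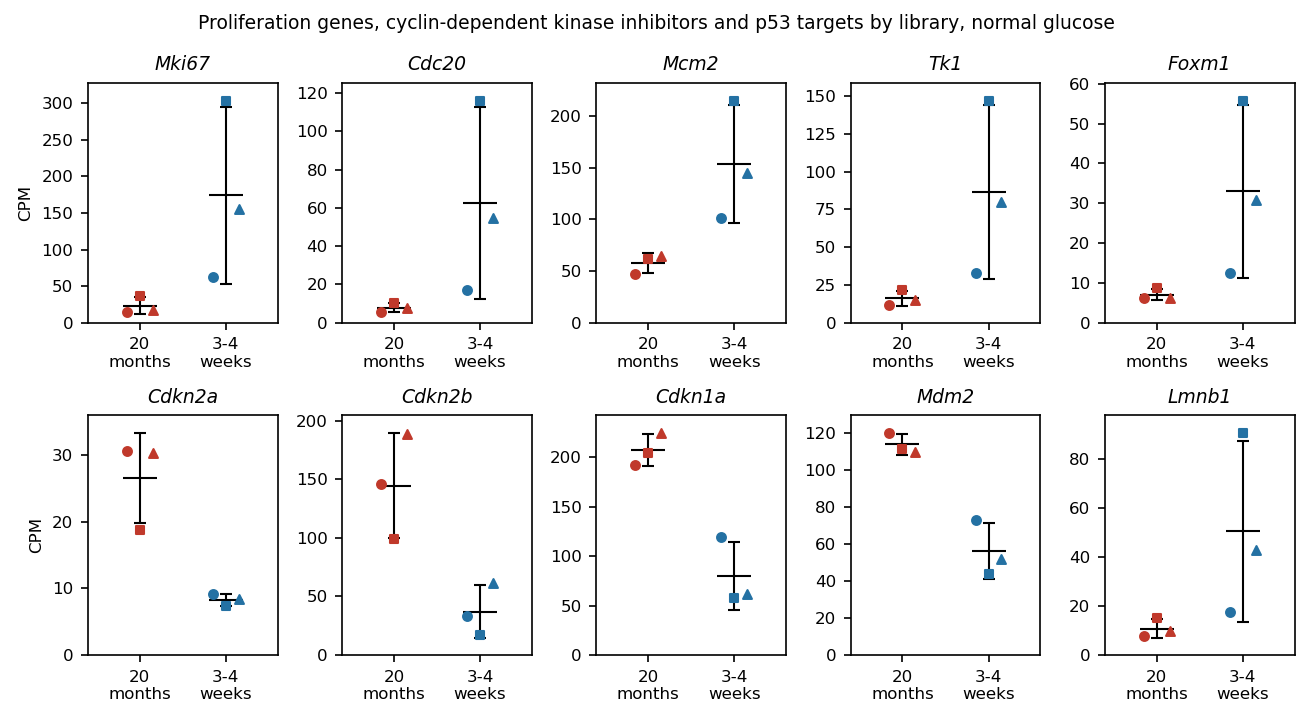
CPM of 10 genes in each library, with 20 months in red on the left and 3-4 weeks in blue on the right of each panel; circles, squares and triangles are libraries 1, 2 and 3, and bars are the mean ± SD of 3 libraries. In the 3-4 weeks group library 1 is the lowest in Mki67, Cdc20, Mcm2, Tk1, Foxm1 and Lmnb1 and the highest in Cdkn1a and Mdm2.

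Of 35 secreted factors tied to senescence, 8 rose and 4 fell, shares near those of all genes. Spp1, osteopontin, a secreted matrix protein that binds integrins (chromosome 14, 6673686 to 6679901), had 1051, 1188 and 1536 CPM at 20 months and 106, 58.3 and 37.8 CPM at 3-4 weeks (4.23 ± 0.39, adjusted p = 7.93e-07). Mmp3, a matrix metalloproteinase, had 1.62, 0.954 and 0.691 CPM at 20 months and at most 0.049 CPM at 3-4 weeks. Igfbp2, which binds insulin-like growth factors, had 1.82, 0.715 and 3.63 CPM at 20 months and at most 0.156 CPM at 3-4 weeks. Il1rn, the antagonist of interleukin 1, had 2.51, 2.24 and 0.993 CPM at 20 months and 8.23, 7.75 and 9.40 CPM at 3-4 weeks.

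Matrix genes moved in both directions. The collagens Col1a1 and Col3a1 and elastin fell, while fibronectin, the short-chain collagen Col8a1 and aggrecan rose. Of 9 fibrillar collagens 4 fell and 0 rose. Col1a1, the main collagen I chain (chromosome 10, 82745801 to 82762789), had 20734, 19609 and 19422 CPM at 20 months and 28268, 30446 and 27061 CPM at 3-4 weeks (log2 change -0.52 ± 0.09, adjusted p = 0.00022). Col3a1 had 9125, 8722 and 8500.2 CPM at 20 months and 13236, 14235 and 15081 CPM at 3-4 weeks (-0.69 ± 0.13). The ages did not overlap in either, and the spread within an age was small. Col5a1, which starts collagen fibrils, and Col24a1 fell by 0.88 and 2.23. Col1a2, the partner chain of Col1a1, is listed at 0 counts in all libraries and could not be read.

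Of 17 other collagens 9 fell and 2 rose. Leaving out library 3 of 20 months, or any of the 3-4 weeks libraries, left 1 of the 2 higher calls. Col8a1, a network-forming short-chain collagen, had 1566, 1662 and 2219 CPM at 20 months and 782, 539.6 and 576 CPM at 3-4 weeks (1.52 ± 0.17, adjusted p = 2.79e-06). The basement membrane chains Col4a4 and Col4a6 fell by 2.21 and 1.5, and Col12a1, which coats fibrils, by 1.22. Of 20 genes of collagen processing 7 fell and 4 rose, and the 4 became 1 to 3 with a library left out, in all but 1 case. P4ha2 and P3h2, prolyl hydroxylases, fell by 0.60 and 1.03 and the propeptidase Adamts14 by 1.24, whereas Plod2, a lysyl hydroxylase for cross-links, rose by 0.50.

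Of 15 elastic fibre genes 7 fell and 2 rose (4 rose without library 3 of 3-4 weeks). Eln, elastin (chromosome 12, 24978483 to 25021863), had 44.0, 65.1 and 32.3 CPM at 20 months and 282, 396 and 819.8 CPM at 3-4 weeks (-3.41 ± 0.58, adjusted p = 0.000245). Even the highest 20 months library was far below the lowest 3-4 weeks library. Emilin2 and Ltbp4, both bound to elastic fibres, fell by 2.14 and 2.65. Ltbp2, a fibrillin-binding protein of the same family as Ltbp4, had 4716, 4279 and 4679 CPM at 20 months and 2755, 1784 and 1693 CPM at 3-4 weeks (1.13 ± 0.19).

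Of 33 matricellular and adhesive glycoproteins 12 rose and 7 fell. Fn1, fibronectin, had 25217, 31214 and 28938 CPM at 20 months and 17424, 14195 and 16295 CPM at 3-4 weeks (0.83 ± 0.12, adjusted p = 3.85e-05). Nov (CCN3) had 1772, 1904 and 2251 CPM at 20 months and 673, 530.3 and 457 CPM at 3-4 weeks (1.84 ± 0.19). Ctgf (CCN2), a matricellular partner of TGF-beta signalling, rose by 0.86 and Smoc1 by 2.13, while Lama2, a laminin chain, fell by 1.33. Postn, periostin, known from injured heart, had 4023, 3307 and 2751 CPM at 20 months and 4869, 2747 and 4173 CPM at 3-4 weeks. Its ages overlapped and it did not pass the test (-0.23 ± 0.21, adjusted p = 0.414).

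Of 21 genes known from cartilage and bone 10 rose and 1 fell. Acan, aggrecan, the large proteoglycan of cartilage (chromosome 1, 140762758 to 140824441), had 23.4, 41.0 and 40.1 CPM at 20 months and 0.157, 1.09 and 0.0979 CPM at 3-4 weeks (6.27 ± 0.70, adjusted p = 4.98e-06). With 26 counts over the 3-4 weeks group, the size of this change is imprecise. Mgp, a matrix protein that binds calcium and holds back calcification, had 3469, 4214 and 5485 CPM at 20 months and 456, 333 and 1322 CPM at 3-4 weeks (2.64 ± 0.50, adjusted p = 0.000562). Matn4, a matrilin, had 40.8, 31.1 and 30.7 CPM at 20 months and 18.9, 11.5 and 11.4 CPM at 3-4 weeks. Matn4 overlaps Rbpjl on the other strand. Spp1, given above, is also in this list.

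Of 22 genes of large proteoglycans and hyaluronan 6 rose and 4 fell. The 4 became 2 without library 1 of 20 months or library 3 of 3-4 weeks. Vcan, versican, had 633, 689.8 and 493 CPM at 20 months and 1119, 1140.0 and 1072 CPM at 3-4 weeks, and Has1, a hyaluronan synthase, 0.246, 0.048 and 0.345 against 3.20, 2.23 and 4.11. Sdc2, a cell surface proteoglycan, rose by 0.82. Of 8 small leucine-rich proteoglycans, which regulate fibril width, 1 rose (Podnl1, 1.61) and 2 fell (Fmod, -1.79, and Lum, -1.45). Neither Fmod nor Lum passed without library 3 of 3-4 weeks.

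Of 25 matrix proteases 6 rose and 8 fell, and of 14 protease inhibitors 7 rose and 1 fell. The 7 became 4 without library 2 of 3-4 weeks. Adamts15, a proteoglycanase, had 3.25, 3.34 and 1.99 CPM at 20 months and 34.5, 23.7 and 31.7 CPM at 3-4 weeks (-3.39 ± 0.35, adjusted p = 2.06e-06). Ctsk, a collagen-degrading lysosomal protease, rose by 0.86. Among the inhibitors, Cst3, cystatin C, had 662, 638 and 757 CPM at 20 months and 244, 212 and 258 CPM at 3-4 weeks (1.53 ± 0.15, adjusted p = 1.2e-06). Serpine2, Timp2 and Reck rose by 1.20, 0.52 and 0.44.

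Of 20 contractile genes of myofibroblasts 12 rose and 1 fell. Acta2, smooth muscle actin, had 4888, 4779 and 5206 CPM at 20 months and 2661, 2946 and 2171 CPM at 3-4 weeks (0.94 ± 0.15, adjusted p = 9.63e-05). Myh11, smooth muscle myosin, had 71.0, 42.9 and 55.8 CPM at 20 months and 6.87, 11.3 and 9.94 CPM at 3-4 weeks (2.59 ± 0.24, adjusted p = 6.52e-07). The ages did not overlap in either. Lmod1 and Tpm1, which bind actin filaments, rose by 1.94 and 0.93. Of 19 targets of YAP and SRF, factors known to respond to stretch, 9 rose and 2 fell, among them Ankrd1 (1.74), Fhl2 (1.34) and Axl (-0.69). Integrins gave 6 higher and 3 lower of 17, with Itga3 at 1.64, Itga7 at 0.98, Itgb3 at -1.31 and Itga4 at -2.19. Smooth muscle and pericyte markers summed to 529.2, 355.9 and 605.9 CPM at 20 months and to 331.4, 622.9 and 363.4 CPM at 3-4 weeks. These sums overlapped, but the members did not move together. Of the 11 markers 3 were called higher and 1 lower. Myh11 had 3634 counts over the 20 months group and 552 over the 3-4 weeks group, Lmod1 8092 and 1928, and Cnn1 1535 and 492. Cspg4, with 8226 and 10602, and Notch3, with 4881 and 6766, had fewer at 20 months. The part of such cells in the contractile result was not tested.

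**Figure D2:**
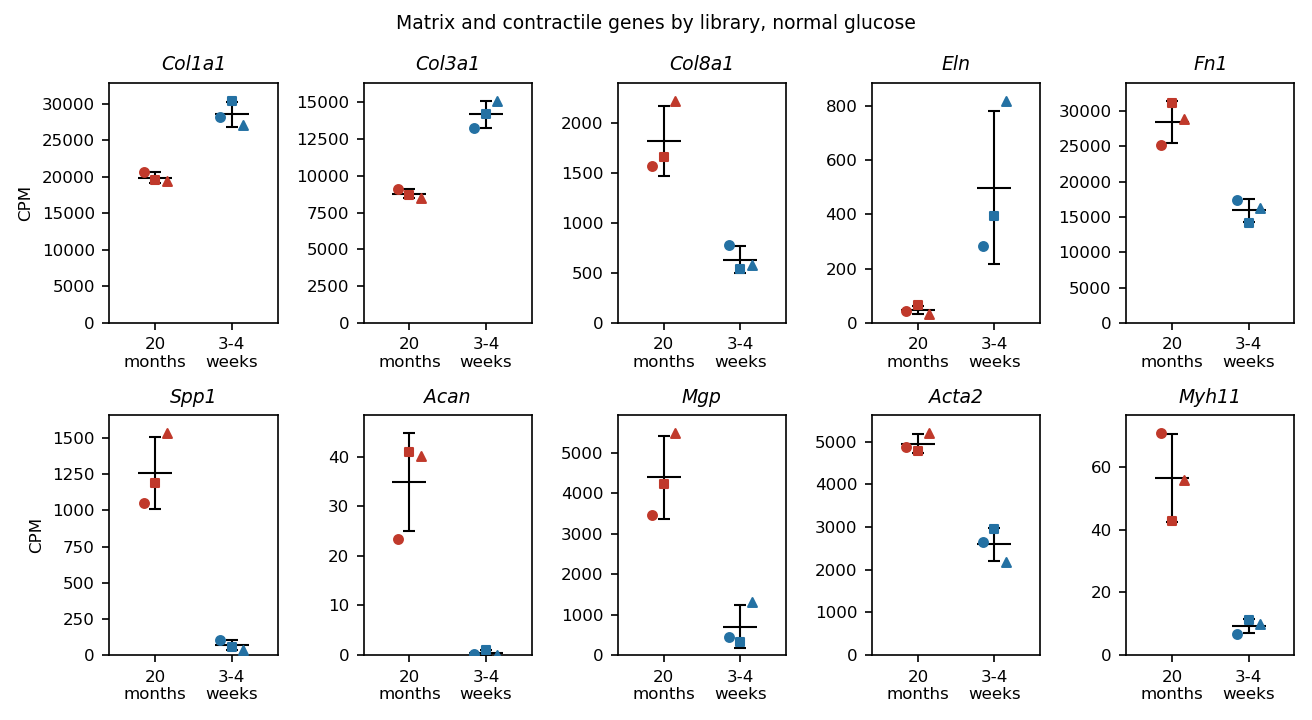
CPM of 10 matrix and contractile genes in each library, with 20 months in red on the left and 3-4 weeks in blue on the right of each panel; circles, squares and triangles are libraries 1, 2 and 3, and bars are the mean ± SD of 3 libraries. Col1a1, Col3a1 and Eln are lower and the other 7 genes higher at 20 months, with no overlap between the ages.

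Ligands and receptors of growth factor pathways moved in both directions, as did all genes tested (17.9% higher, 19.7% lower). The Wnt list given below was near these shares, and the TGF-beta list was above both. Of 26 genes of TGF-beta signalling, the main pathway to fibrosis, 10 rose and 7 fell. The ligand Tgfb3 had 2279, 2267 and 2560 CPM at 20 months and 941, 1002 and 637 CPM at 3-4 weeks (1.46 ± 0.26, adjusted p = 0.000401). Its receptor Tgfbr1 had 20.7, 22.7 and 18.9 CPM at 20 months and 36.8, 35.9 and 31.6 CPM at 3-4 weeks (-0.75 ± 0.10, adjusted p = 1.39e-05). Of 24 genes of the BMP and GDF pathway 6 rose and 3 fell. Grem1, a secreted BMP antagonist, had 218, 352 and 360 CPM at 20 months and 56.3, 82.8 and 80.1 CPM at 3-4 weeks (2.09 ± 0.35). The ligand Bmp6, the receptor Acvrl1 and the antagonist Chrd fell by 1.18, 0.67 and 0.67.

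Among 32 genes of fibroblast, platelet-derived and related growth factors 10 rose and 8 fell. Ptn, pleiotrophin, a secreted growth factor (chromosome 4, 64239158 to 64330996), had the largest fall of the named symbols at a mean log2 CPM of at least 1. It had 2.71, 4.15 and 2.12 CPM at 20 months and 22.0, 41.4 and 113 CPM at 3-4 weeks (-4.30 ± 0.68, adjusted p = 0.000139). Fgfr4, a receptor, had at most 0.197 CPM at 20 months and 1.63 to 2.30 CPM at 3-4 weeks. Vegfc, a lymphatic growth factor, and Pdgfrl rose by 0.93 and 1.06. Of 20 insulin-like growth factor genes 4 rose and 6 fell. The RNA-binding proteins Igf2bp2 and Igf2bp3, known from fetal tissue, fell by 1.45 and 1.07 and Stc2 by 1.42. Igf2 was near the floor at both ages and did not pass (adjusted p = 0.214).

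Of 25 Wnt pathway genes 5 rose and 4 fell. Sfrp4, a secreted Wnt antagonist, had 46.2, 36.0 and 39.7 CPM at 20 months and 5.87, 6.60 and 6.12 CPM at 3-4 weeks (2.71 ± 0.31, adjusted p = 6.46e-06). Dkk3 and the agonist Rspo1 rose by 1.26 and 1.63, and the receptor Ror2 fell by 0.86. Among 32 receptors and enzymes of pressor and inflammatory mediators 12 fell and 5 rose. The 5 became 3 without library 1 or 3 of 20 months or library 1 of 3-4 weeks. Ace, which makes angiotensin II, had 0.443, 0.572 and 1.25 CPM at 20 months and 6.61, 4.16 and 9.60 CPM at 3-4 weeks (-3.13 ± 0.60, adjusted p = 0.000634). Npr1, the receptor for natriuretic peptides, Osmr, the oncostatin M receptor, and S1pr3 fell by 1.02, 1.46 and 1.18, while the thrombin receptor F2r rose by 0.84.

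Interferon response genes, which encode antiviral proteins, were lower: 29 of 41 fell and 1 rose (median -1.11). Without library 3 of 3-4 weeks 16 fell. Summed over the list, the libraries had 698.7, 708.0 and 601.3 CPM at 20 months and 930.8, 998.5 and 1546 CPM at 3-4 weeks, so library 3 held the most. Bst2, tetherin, had 3.15, 3.15 and 1.17 CPM at 20 months and 17.3, 34.9 and 88.5 CPM at 3-4 weeks (-4.25 ± 0.70, adjusted p = 0.000182). Irf1, a transcription factor of the response, had 11.5, 11.0 and 11.7 CPM at 20 months and 18.5, 23.4 and 24.0 CPM at 3-4 weeks (-0.95 ± 0.11, adjusted p = 6.66e-06). Oasl2 and Ifi47 fell by 1.16 and 1.95. Of 30 antigen presentation genes 12 fell and 3 rose, and the 12 became 8 without library 3 of 20 months (9 without library 1). RT1-CE16, a class I gene of the rat histocompatibility complex, had 38.1, 89.2 and 74.1 CPM at 20 months and at most 0.156 CPM at 3-4 weeks, while RT1-N3 fell by 1.36. Class I genes are near copies that differ between strains, and RT1-CE16 overlaps RT1-A3, so reads may be split between them and these values are uncertain.

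Markers of macrophages and leukocytes fell in 15 of 18 cases (0 rose; median -2.02), and in 12 without library 1 of 3-4 weeks (median -1.42). Without library 2 of 3-4 weeks 1 marker was called higher. The list summed to 218.8, 128.3 and 96.7 CPM at 20 months and to 1024, 413 and 374 CPM at 3-4 weeks. Lyz2 gave much of this, with 12502 counts in library 1 of 3-4 weeks. Within 3-4 weeks C1qa, C1qb and C1qc had the most counts in library 2 and Cd163 and Cd74 in library 3. All other markers of the list had the most in library 1. Ptprc, the leukocyte antigen CD45, had 3.99, 3.58 and 2.20 CPM at 20 months and 21.7, 9.31 and 9.01 CPM at 3-4 weeks, and Itgam 6.74, 4.72 and 3.20 against 36.9, 17.9 and 18.2. Without library 1 of 3-4 weeks Ptprc was at -1.5 and Itgam at -1.89, against -2.04 and -2.32 with it. Itgam overlaps Itgax on the same strand. All 18 markers had a count at 3-4 weeks, and Cd163 was at 0 at 20 months. In bulk samples fewer cells of a type and less RNA per cell cannot be told apart. Among chemokines and cytokines 8 of 36 fell and 5 rose. The 5 became 2 without library 2 of 3-4 weeks and 3 without library 1 of 20 months or library 1 or 3 of 3-4 weeks, and the 8 became 5 without library 2 of 20 months. Ccl3, Ccl6, Ccl9 and Osm, which macrophages are known to make, were among those that fell (-2.26, -4.42, -3.72 and -2.71), and outside the list Ccl12 fell by 3.93. The part of macrophage RNA in these and in the interferon result was not tested. Complement and coagulation genes gave 7 lower and 5 higher of 31, among them C7 (-3.02), C5ar1 (-2.11) and Cd59, an inhibitor of complement (1.72). NF-kappaB genes gave 4 lower and 1 higher of 21, led by Bcl3 (-2.31) and Rel (-1.29).

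In the lists of lipid synthesis, calls were lower at 20 months and 0 were higher. Of 25 cholesterol genes 17 fell and 0 rose (median -0.66), and of 16 fatty acid synthesis genes 11 fell and 0 rose (median -0.89). Without library 1 of 3-4 weeks 13 of the cholesterol genes fell (median -0.47) and 11 of the fatty acid synthesis genes (median -0.88). Srebf2, the transcription factor of the pathway, fell by 0.66 and the sterol carrier Stard4 by 1.35. Fasn, fatty acid synthase, had 274, 339 and 374 CPM at 20 months and 853, 669 and 846 CPM at 3-4 weeks (-1.26 ± 0.14, adjusted p = 2.66e-06). The desaturases Fads2 and Scd1 and the carboxylase Acaca fell by 2.21, 1.91 and 0.97. The sterol regulatory letters TCACNCCAC (either strand) were in 0 of 17 cholesterol promoters and 0 of 12 fatty acid promoters, and in 1.17% of all. CCAAT was in 14 of the 17 (82.4%).

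Genes of fatty acid oxidation and storage went the other way, with 12 of 31 higher and 2 lower. Acadvl and Hadh, enzymes of beta-oxidation, rose by 0.65 and 0.71, and the fatty acid carrier Fabp5 fell by 1.01. Of 21 genes of serine, glycine and folate metabolism and amino acid uptake 17 fell and 0 rose (median -0.78). The 17 became 11 without library 3 of 20 months or library 2 of 3-4 weeks. Slc1a5, a glutamine carrier, had 66.0, 59.4 and 54.8 CPM at 20 months and 166, 189 and 137 CPM at 3-4 weeks (-1.45 ± 0.15, adjusted p = 1.27e-06). Slc7a5, Slc6a9 and the mitochondrial folate enzyme Mthfd1l fell by 1.0, 1.48 and 1.33. Glycolysis gave 3 higher and 3 lower of 26. Pfkp, Hk2 and Pkm fell by 0.55, 0.70 and 0.48, and Eno2 rose by 0.61.

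Antioxidant genes and targets of NRF2, the regulator of detoxifying enzymes, rose in 22 of 44 cases and 1 fell (median 0.38). Nqo1, a quinone reductase, had 477, 857 and 726 CPM at 20 months and 133, 203 and 108 CPM at 3-4 weeks. It was chosen after its values were seen. Sod3, the extracellular superoxide dismutase, had 479, 476 and 501 CPM at 20 months and 135, 139 and 215 CPM at 3-4 weeks (1.57 ± 0.20, adjusted p = 1.37e-05). Taldo1, of the pentose phosphate pathway, had 199, 223 and 202 CPM at 20 months and 120.3, 106 and 104 CPM at 3-4 weeks (0.92 ± 0.10, adjusted p = 2.65e-06). The aldehyde dehydrogenase Aldh3a1 had 26.4, 90.7 and 34.1 CPM at 20 months and 0.839, 1.25 and 1.27 CPM at 3-4 weeks. Gsta1, a glutathione transferase, had 69.4, 85.7 and 80.0 CPM at 20 months and 19.3, 21.7 and 27.5 CPM at 3-4 weeks (1.78 ± 0.20, adjusted p = 5.04e-06). Gsta5 rose by 5.52. The Gsta genes are close copies, and Gsta1 overlaps Gsta3 on the other strand, so their values are uncertain.

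Gsta1 is shown for the antioxidant response element, the site known to bind NRF2 (RefSeq promoter, GRCr8, chr9:31216483-31216782, minus strand). Gsta1 was the called gene of the antioxidant list with the smallest adjusted p among those holding the element, so a match was fixed by this choice. Capitals mark its match to TGACNNNGC, searched on both strands.
Gsta1: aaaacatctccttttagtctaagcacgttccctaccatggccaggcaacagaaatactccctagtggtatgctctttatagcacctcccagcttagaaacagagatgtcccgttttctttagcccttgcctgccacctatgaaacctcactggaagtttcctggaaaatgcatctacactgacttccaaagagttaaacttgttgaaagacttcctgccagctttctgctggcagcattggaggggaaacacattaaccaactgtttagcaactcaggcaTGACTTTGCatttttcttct

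These letters were in 11 of the 35 antioxidant promoters matched (31.4%) and in 14.9% of all promoters. In iron handling 3 of 17 genes rose and 1 fell. Fth1, the ferritin heavy chain, had 1464, 1637 and 2093 CPM at 20 months and 712, 681 and 689 CPM at 3-4 weeks (1.32 ± 0.14, adjusted p = 1.69e-06), and the transferrin receptor Tfrc fell by 0.77. The ferroxidase Cp rose by 1.97, and it overlaps Hps3 on the other strand.

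Lysosome and autophagy genes rose in 22 of 40 cases and fell in 3 (median 0.34). In 22 of the 40 every 20 months library was above all 9 younger normal glucose libraries, as in 1909 (13.8%) of all genes. Tpp1, a lysosomal peptidase, was among these without passing the test, and Neu1, a sialidase, passed without being among them. Ctsb, cathepsin B, had 1902, 1833 and 2107 CPM at 20 months and 1119, 933 and 1072 CPM at 3-4 weeks (0.90 ± 0.10, adjusted p = 3.06e-06). Npc2, which moves cholesterol out of lysosomes, had 1066, 979.9 and 1194 CPM at 20 months and 614, 482 and 446 CPM at 3-4 weeks (1.07 ± 0.14). Gabarapl1, of autophagosomes, rose by 0.82. The macrophage genes Cd68 and Ctss were among the 3 that fell.

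Of 13 mitochondrially encoded genes 12 rose and 0 fell (median 0.68). Mt-nd2, a subunit of complex I, had 2675, 2681 and 2547 CPM at 20 months and 1652, 1360 and 1544 CPM at 3-4 weeks (0.79 ± 0.09, adjusted p = 2.79e-06). Mt-cox3 had 7627, 6983 and 6465 CPM at 20 months and 4341, 4195 and 4243 CPM at 3-4 weeks (0.72 ± 0.09). Mt-atp6 and Mt-atp8 overlap each other and Mt-atp6 also Mt-cox3, so reads there are shared. Nuclear genes of the respiratory chain gave 13 higher and 1 lower of 39, with a small list median of 0.13. The 13 became 5 to 7 without library 1 of 20 months or library 2 or 3 of 3-4 weeks, and with library totals alone the list gave 8 higher and 6 lower. Cox8a, Cox6c and Cox7c rose by 0.56, 0.59 and 0.61.

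Lists of stress, growth and daily rhythm genes gave the following counts. Of 24 heat shock genes 6 rose and 0 fell, although 3 fell without library 3 of 3-4 weeks and 4 fell with library totals alone. The list was led by Cryab, alpha-B crystallin, with 2482, 2272 and 2639 CPM at 20 months and 947, 906 and 635 CPM at 3-4 weeks (1.57 ± 0.19). Of 28 genes of the unfolded protein and amino acid response 9 fell and 1 rose, among them Atf3 (-1.23), Ddit4 (-0.93), Trib3 (-0.85) and Herpud1 (-0.38). Ribosome assembly genes fell in 13 of 28 cases and 0 rose, among them the nucleolar proteins Fbl (-0.79), Dkc1 (-0.49), Utp20 (-0.56) and Ncl (-0.44). That count was 20 with library totals alone, 6 without library 2 of 20 months, 8 without library 1 and 5 without library 2 of 3-4 weeks. Of 17 circadian clock genes 8 fell and 0 rose, and 3 to 5 fell without library 2 or 3 of 20 months or any one 3-4 weeks library. Bhlhe40, Per3, Cry2 and Ciart were at -0.82, -0.79, -0.45 and -0.76. Proteasome genes gave 3 higher and 0 lower of 25 (list median 0.12), all 3 under 0.4 in log2 change. The 3 became 0 or 1 without library 1 or 2 of 20 months or library 2 or 3 of 3-4 weeks. Immediate early genes gave 2 higher and 3 lower of 25, among them Dusp1 (1.33) and Klf4 (-0.83), and fetal and imprinted genes 1 higher and 5 lower of 16, among them Grb10 (-0.58) and Plagl1 (-1.74). Txnip, which responds to glucose, had 241, 176 and 252 CPM at 20 months and 132, 181 and 142 CPM at 3-4 weeks (0.56 ± 0.16, adjusted p = 0.00929), and its ages overlapped.

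Markers of the cells themselves also differed. The fibroblast markers Pdgfra and Tcf21 were present in every library, at 51.7 to 76.2 and 13.5 to 14.4 CPM at 20 months and 134 to 322 and 33.9 to 68.5 CPM at 3-4 weeks. Of 14 tested fibroblast markers 9 fell and 2 rose. Dpt, dermatopontin, a matrix protein, had 4.87, 5.44 and 2.98 CPM at 20 months and 47.6, 41.9 and 106 CPM at 3-4 weeks (-3.88 ± 0.47, adjusted p = 1.1e-05). Ddr2, a collagen receptor, fell by 0.79, and the surface glycoprotein Thy1 rose by 0.78. Of 42 cardiac and lateral plate transcription factors 8 rose (5 without library 1 of 20 months) and 6 fell, shares near those of all genes. Among the called genes of this list were Msx1 (1.53), Ebf2 (-1.0) and Wt1 (-2.09). HOX genes, which mark position along the body, rose in 4 of the 6 tested. Hoxb7 had 0.345, 0.668 and 0.691 CPM at 20 months and 0 counts at 3-4 weeks, and was at least 11.2-fold higher against a floor of 3 counts over the group.

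Of cardiomyocyte markers 3 of 18 rose and 3 fell (16.7% each), near the shares of all genes. Ryr2, Mb, Myl2, Myl7 and Ckm had 0 counts in the 6 libraries compared, so they could not be called. Actn2, a sarcomere protein, had 7.09, 10.4 and 10.7 CPM at 20 months and 0.577, 0.520 and 0.588 CPM at 3-4 weeks (4.05 ± 0.30, adjusted p = 5.5e-08), and Nppb, the natriuretic peptide gene, rose by 2.86. Tnnt2, cardiac troponin T, had 43.6, 47.2 and 24.4 CPM at 20 months and 89.4, 103 and 176 CPM at 3-4 weeks (-1.68 ± 0.27, adjusted p = 0.000133). Other defining markers, Myh6, Myh7, Actc1, Ryr2 and Nppa, had 0 to 5 counts over the 20 months group and 0 to 13 over the 3-4 weeks group. The whole list summed to 475.8, 567.6 and 532.5 CPM at 20 months and to 581.5, 679.5 and 712.5 CPM at 3-4 weeks. Most of that sum was Atp2a2, with 30712 counts over the 20 months group and 30479 over the 3-4 weeks group. In this list 7 of the 18 genes were at 0 counts at 20 months and 5 at 3-4 weeks. Schwann cell markers gave 5 higher and 1 lower of 9. S100b, which cartilage cells also express, had 12.6, 12.1 and 21.0 CPM at 20 months and 1.26, 1.14 and 1.18 CPM at 3-4 weeks (3.67 ± 0.31, adjusted p = 1.57e-07), and the myelin genes Pmp2 and Mbp rose by 5.21 and 1.04. Sox10, which defines these cells, had 0 counts at 20 months and 42 at 3-4 weeks. Their list summed to 489.5, 448.7 and 475.7 CPM at 20 months and to 554.0, 371.0 and 420.6 CPM at 3-4 weeks. Most of that sum was Ncam1, with 22790 counts over the 20 months group and 19201 over the 3-4 weeks group. Epicardial and mesothelial markers gave 4 higher and 2 lower of 11. Krt19 differed within 20 months, with 2.95, 0.0954 and 4.97 CPM, against at most 0.052 CPM at 3-4 weeks. Smooth muscle markers gave 3 higher and 1 lower of 11, adipocyte markers 3 higher (1 without library 3 of 20 months) and 0 lower of 6, and endothelial markers 0 higher and 2 lower of 9. Lymphocyte and platelet lists had 2 tested members each, all lower. Cd8a had 0 counts at 20 months and was at least 6.95-fold lower there.

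The largest changes also named genes outside the lists. Trh, the thyrotropin-releasing hormone, had 15.3, 41.1 and 26.9 CPM at 20 months and 0.577, 0.728 and 0.735 CPM at 3-4 weeks (5.34 ± 0.55, adjusted p = 2.5e-06). Tll1, a protease of the BMP1 family that trims procollagen, had 83.8, 65.9 and 79.7 CPM at 20 months and 6.45, 6.91 and 3.53 CPM at 3-4 weeks (3.77 ± 0.33, adjusted p = 4.64e-07). Vsnl1, a calcium sensor, and Mal2 rose by 3.61 and 3.57. Cyp1a1, a target of the aryl hydrocarbon receptor, varied within 20 months, with 5.41, 28.0 and 1.99 CPM, against 1.05, 0.780 and 0.784 CPM at 3-4 weeks. Igsf10, of the immunoglobulin family, had 3.89, 2.0 and 2.46 CPM at 20 months and 22.0, 31.0 and 46.5 CPM at 3-4 weeks (-3.58 ± 0.41). The kinase Nrk, carbonic anhydrase Car2, the mitotic kinesin Kif14 and the cadherin Dchs1 fell by 3.70, 3.65, 3.38 and 3.23.

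**Figure D3:**
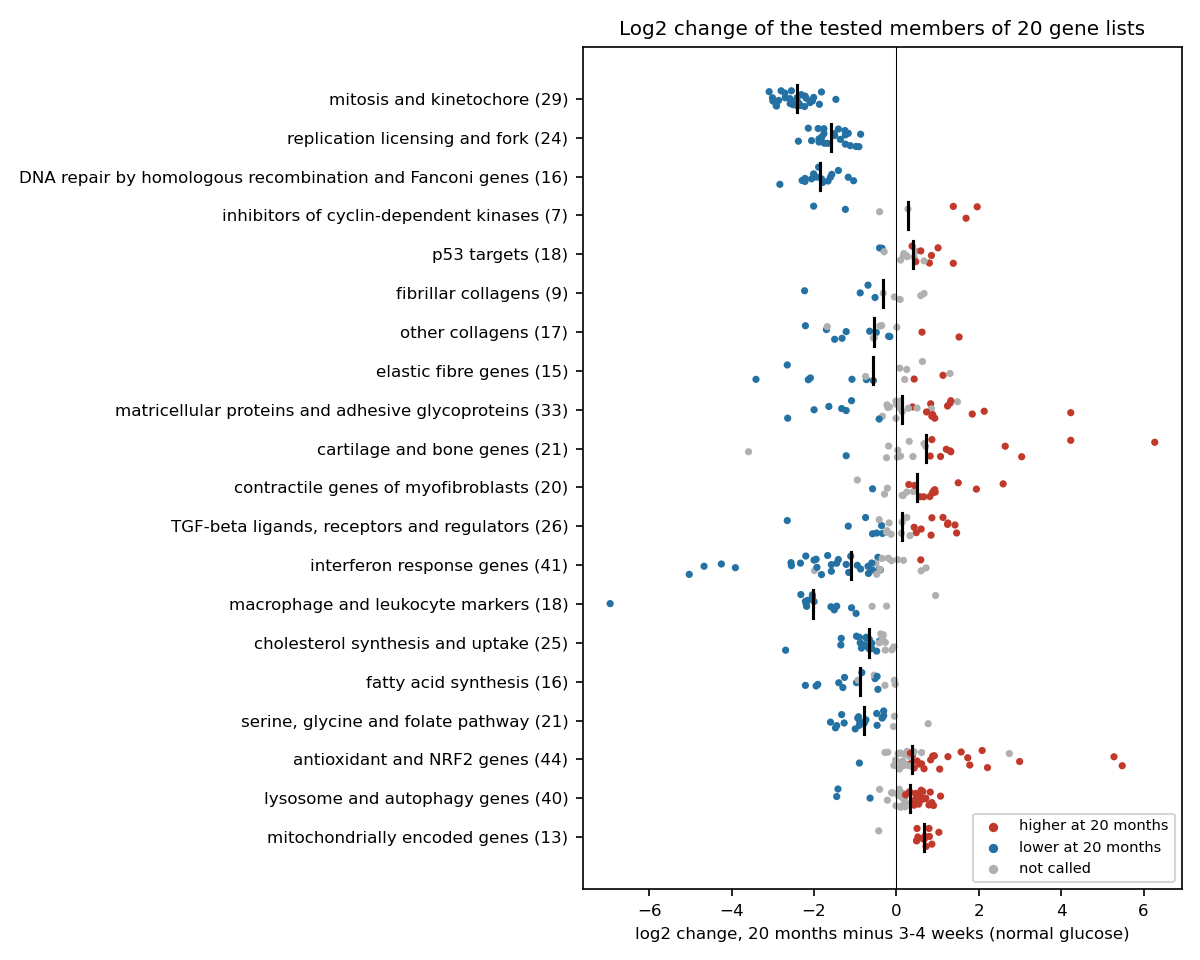
Log2 change, 20 months minus 3-4 weeks in normal glucose, of every tested member of 20 lists, with the number tested in brackets; red points were higher and blue points lower at an adjusted p under 0.05, grey points were not called, and black bars are list medians. The mitosis list has a median of -2.41 and the mitochondrially encoded list of 0.68.

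In high glucose the same ages differed in 4767 genes (34.5%), 2272 (16.5%) higher and 2495 (18.1%) lower at 20 months. Called in both media and in the same direction were 3980 genes, which is 76.8% of the normal glucose calls and 83.5% of the high glucose calls, and 0 were called in opposite directions. Within an age, libraries of the same number in the 2 media correlated at 0.41 to 0.67 after group means were taken off, so the 2 media are not independent repeats of the age comparison. Of the normal glucose calls 99.5% had the same sign in high glucose. The test of the difference between the age effects called 0 genes (158 at an unadjusted p under 0.05, smallest adjusted p 1.0). Taking same-numbered libraries of an age as blocks also gave 0 (784 unadjusted), and DESeq2 called 1, a gene without a common symbol (171 unadjusted). The 158 genes are 1.14% of those tested, under the share of 0.05 that this threshold gives where no gene differs. The p-values of the fit without blocks therefore ran high. Over the genes called in normal glucose the age effects of the 2 media differed by a median of 0.105 in log2. Their median SE in the fit without blocks was 0.21, and differences of the size of that SE were not detectable there. The SE with blocks is not reported here.

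Mitosis genes fell in 29 of 29 cases in high glucose too (median -2.60) and replication genes in 23 of 24. Cdkn2a rose by 1.80 and Spp1 by 4.08, and Eln and Col3a1 fell by 3.83 and 0.80 there. Cholesterol genes were lower in 9 of 25 cases in high glucose (median -0.36). No gene of the list passed the test of a difference between the media. Fatty acid synthesis genes were lower in 9 of 16 cases and interferon genes in 27 of 41.

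**Figure D4:**
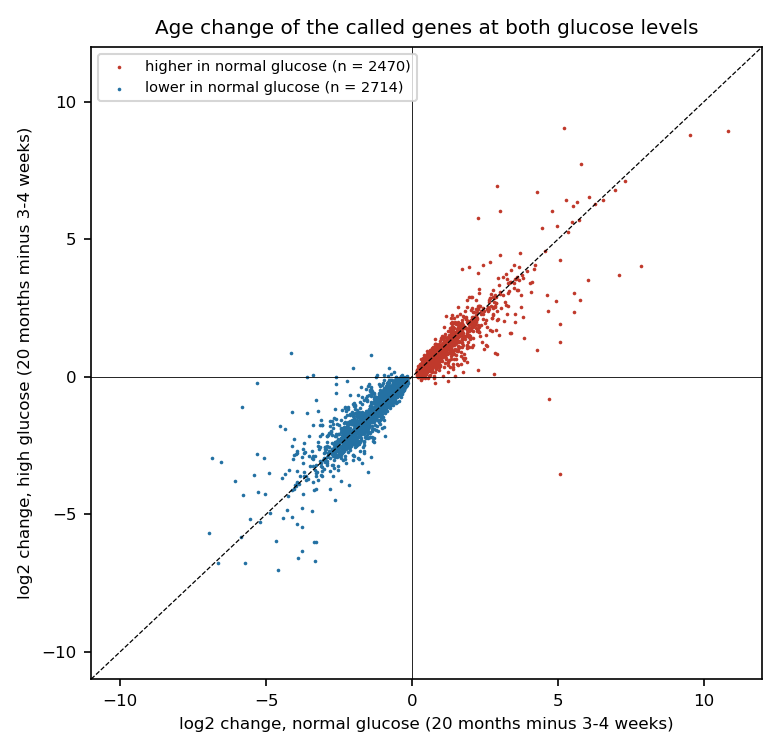
Log2 change at 20 months against 3-4 weeks in normal glucose (x axis) and in high glucose (y axis) of the 5184 genes called in normal glucose, red where higher and blue where lower there; the dashed line marks equal change. Most points lie near the line, and 99.5% have the same sign in both media.

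The 10-13 weeks libraries in normal glucose show where along the span a gene stood. They share the 3-4 weeks libraries with the age comparison, so these are descriptions. Among genes higher at 20 months the 10-13 weeks mean was on the far side of 3-4 weeks in 35.1% and less than 0.33 of the way to 20 months in 36.4%. It was over 0.67 of the way in 6.4% and beyond the 20 months level in 2.47%. Among genes lower at 20 months these shares were 40.3%, 28.6%, 8.29% and 5.38%. Without library 1 of 3-4 weeks, genes on the far side made up 28.3% of the higher and 25.4% of the lower calls.

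All 29 mitosis, 24 replication and 16 repair genes had a higher mean log2 CPM at 10-13 weeks than at 3-4 weeks. This did not hold for mean CPM: Mki67 averaged 174 CPM at 3-4 weeks and 153 CPM at 10-13 weeks. The mitosis sums of 10-13 weeks, 1580, 1485 and 1212 CPM, lay inside the wide range of 3-4 weeks (448.4 to 2697). Cdkn2a averaged 5.19 CPM at 0-3 days, 8.24 CPM at 3-4 weeks, 6.37 CPM at 10-13 weeks and 26.5 CPM at 20 months. Spp1 averaged 202 CPM at 0-3 days, 67.3 CPM at 3-4 weeks, 39.2 CPM at 10-13 weeks and 1258 CPM at 20 months. Mitochondrially encoded genes summed to 43653.5 to 48239.3 CPM at 20 months, against 31429.7 to 35969.3 CPM at 10-13 weeks. Macrophage markers were the opposite case: 14 of the 15 called were near or beyond the 20 months level at 10-13 weeks, where they summed to 103.4, 109.0 and 167.6 CPM. Interferon genes stood between, with 17 of the 29 lower calls between 0.33 and 0.67 of the way. RT1-CE16, Smoc1 and Plod2, higher at 20 months, and Col4a4, lower at 20 months, were also near their 20 months level at 10-13 weeks.

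**Figure D5:**
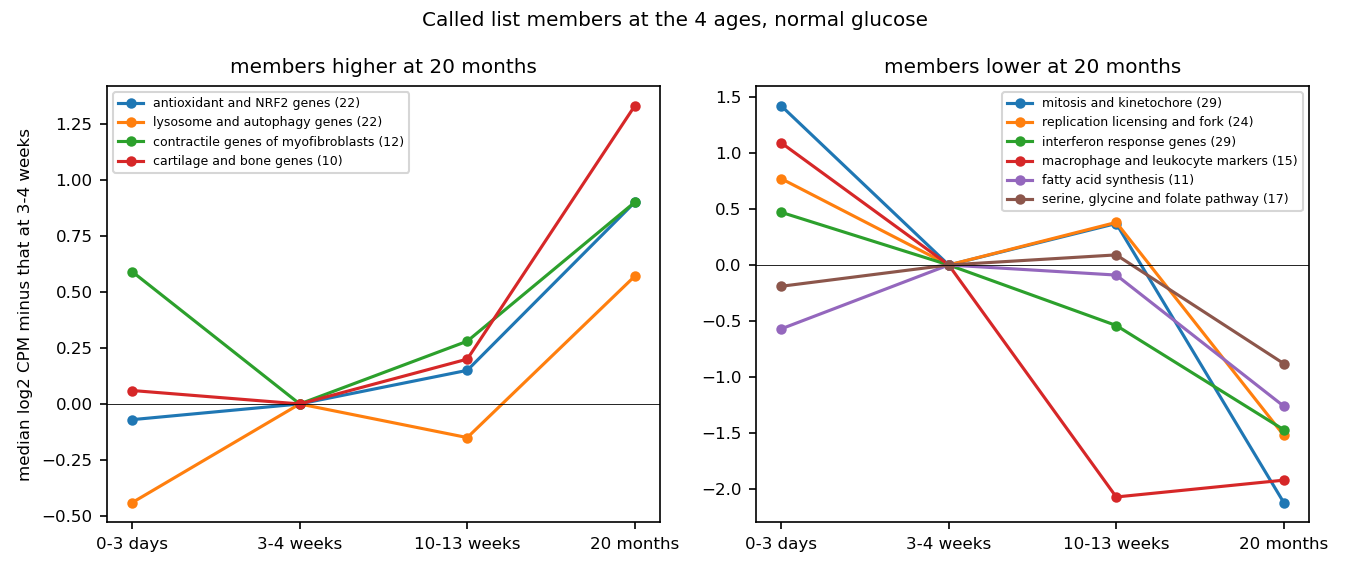
Median over the called members of 10 lists of the mean log2 CPM at 0-3 days, 3-4 weeks, 10-13 weeks and 20 months in normal glucose, each member relative to 3-4 weeks; members higher at 20 months are on the left, lower ones on the right, with their number in brackets. Mitosis genes are at 0.37 at 10-13 weeks and -2.12 at 20 months, macrophage markers at -2.07 and -1.92.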

How the data were processed

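Whole-number gene counts and FPKM values were deposited by the authors for 24 libraries. Per the submitters' processing notes, the tools named were HISAT2 2.0.4, StringTie 1.3.0 and edgeR, with the genome build Rnor_6.0. Strand setting and annotation release are not given in the sources used here. The FPKM values deposited by the authors were counts over a fixed length and the library's own total, and were used only for checks. Of 30957 genes, 11647 had no count in any library.

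Tests used edgeR 4.0.16 (R 4.3.3): filterByExpr by group (minimum count 10, minimum total 15), TMM factors and a robust quasi-likelihood fit of all 24 libraries with a mean for each of the 8 groups, with Benjamini-Hochberg adjustment over 13806 genes and a threshold of 0.05. The fit was tested on simulated data. List and marker sums are CPM of plain library totals. Tables and figures used Python 3.11.15 with pandas 2.3.3, numpy 2.4.6 and matplotlib 3.10.9. Alternatives were DESeq2 1.42.0, other scalings and filters, other sets of libraries and a replicate block. Same-numbered libraries of the 2 ages correlated at 0.26, 0.12 and -0.06 after group means were taken off, so the numbers were not taken as pairs.

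Genes were named by rule: up to 12 per direction with the largest change (mean log2 CPM of at least 1, no overlap, a symbol), up to 4 per list with the smallest adjusted p, a fixed set of genes, and up to 4 each near the 3-4 weeks or 20 months level at 10-13 weeks. A few markers and the genes said to be chosen otherwise fall outside it. The members and lists were chosen with earlier results of these data known. Some results covered by this rule are not reported here.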

Additional observations from a re-analysis of the deposited data

How the results depend on the processing

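The age comparison in normal glucose called 5184 genes, and between 3777 and 5051 with 1 library left out (1775 to 2423 higher, 2002 to 2628 lower). Fitting only the groups compared gave 3719. In high glucose 4767 genes were called, 3623 to 4704 with 1 library left out, and 3144 when only the groups compared were fitted. Such a fit leaves fewer libraries to estimate the spread. The main fit took all libraries as independent, although same-numbered libraries of normal and high glucose correlated within an age. The part of this in the higher counts of the main fit was not tested. The difference between the age effects gave 0 genes throughout, apart from 1 in DESeq2; the cause was not tested. With replicate number as a block the counts were 5390 in normal glucose, 5002 in high glucose and 0 for the difference. The pairing of numbers across ages was not borne out by the correlations. Of 126 list counts 75 stayed within 1.5 times under every alternative and 51 moved under some. Of 245 named genes, 243 of them called, 228 stayed on their side of the threshold under every alternative run for them, 17 lost the call under some and 0 of the called genes changed sign. Mitochondrially encoded genes have no value in the alternative that leaves them out. Genes at a few counts, such as Hoxb7, Cd8a, Mmp3 and Igfbp2, have changes whose size this depth does not fix.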
